A study of Homo sapiens with 4 samples.

Results

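GAS5, ZFAS1 and the SNHG genes carry small nucleolar RNAs (snoRNAs) in their introns and release a spliced, polyadenylated transcript that codes for no known protein. The transcripts were chosen by gene name: 10 names were listed, and 9 of them had a row among the 57659 genes of the deposited table. SNHG8 was not analysed here. All 9 rows passed the filter on low values described below. The transcripts were measured by RNA-seq in 786-0 cells, an established human renal cell carcinoma line that lacks functional VHL, the tumour suppressor most often lost in clear cell tumours. The control siRNA group held 2 libraries, called control 1 and control 2, and the other group held 2 libraries of cells given siRNA against SLFN5, an interferon-regulated member of the Schlafen family (SLFN5 siRNA 1 and SLFN5 siRNA 2). All 4 libraries thus came from siRNA-transfected cells of this line, and the labels state neither the time after transfection nor the siRNA sequences. In their titles, the libraries numbered 1 share a code and so do those numbered 2; the labels do not say what the codes stand for. The series text speaks of triplicates, while 2 libraries per group were analysed here. Nothing in the labels states that cultures were separate within a group, so the p-values measure only the spread between these libraries, which may be technical. The comparison asked how the host transcripts differed when SLFN5 was reduced.

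As background, box C/D snoRNAs guide methylation of ribosomal RNA and box H/ACA snoRNAs guide its pseudouridylation, and most human snoRNAs are cut from the introns of host genes. Many hosts, coding or not, begin with a pyrimidine tract like that of ribosomal protein mRNAs, which ties them to growth-dependent transcription and translation. The spliced noncoding products of several hosts, GAS5 among them, hold short reading frames with early stop codons and are degraded by nonsense-mediated decay (NMD), so they accumulate when translation is blocked. GAS5 was named for its accumulation in growth-arrested cells and can bind the glucocorticoid receptor.

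The sequence at the annotated start is shown because a pyrimidine tract there is the feature these genes are known to share. Starts from RefSeq (GRCh38.p14) were used for 8 of the 10 names, including SNHG8. SNHG6 and SNHG15 were left out of this set, so the counts of starts below do not cover them. Each line gives 10 bases before the annotated start and the 20 bases from it on, 5′ to 3′ on the gene's strand, with the longest run of C or T that begins within 5 bases of the start in capitals.
GAS5 (chr1:173869026-173869055, minus strand): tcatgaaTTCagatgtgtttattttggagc
SNHG1 (chr11:62855866-62855895, minus strand): gagattcgttctcaTTTTTCTactgctcgt
SNHG3 (chr1:28505933-28505962, plus strand): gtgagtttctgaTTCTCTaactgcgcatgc
SNHG5 (chr6:85678714-85678743, minus strand): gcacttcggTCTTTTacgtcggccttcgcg
SNHG7 (chr9:136728165-136728194, minus strand): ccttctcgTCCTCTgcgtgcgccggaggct
SNHG12 (chr1:28581854-28581883, minus strand): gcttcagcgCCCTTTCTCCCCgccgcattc
ZFAS1 (chr20:49278632-49278661, plus strand): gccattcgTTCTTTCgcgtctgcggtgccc

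A run of at least 5 C or T bases stood there in 7 of the 8 starts, against 30% of all 35116 promoters in the RefSeq table and 27 of 43 promoters of protein-coding snoRNA hosts. A run of at least 8 stood in 1 of the 8 starts (SNHG12), in 17 of the 43 and in 7.12% of all promoters. SNHG12 had the longest run, 12 bases, and GAS5 had 3 at its annotated start. Each gene entered with 1 RefSeq start, so the starts of its other transcripts were not examined. Only the strand of the gene was searched. The match is a description of these letters. SNHG1 and SNHG7, which were lower after SLFN5 siRNA, carried runs of 7 and 6 bases, and SNHG15, also lower, had no start here. Of those that did not pass the test, SNHG3, SNHG5 and ZFAS1 carried 6, 6 and 7, SNHG12 carried 12 and GAS5 carried 3. Any relation of the runs to the changes was not tested.

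Values are equalised counts, that is, read counts that the authors adjusted to a common library size, and a log2 change is the SLFN5 siRNA mean less the control mean on the log2(value + 1) scale, with the standard error (SE) and a p-value from limma adjusted over all 15640 tested genes (threshold 0.05). The read counts behind them were recovered by inverting the adjustment and totalled 31905328 and 13187517 for controls 1 and 2, and 17117659 and 14700669 for the SLFN5 siRNA libraries. The 9 transcripts together took 0.0879% to 0.107% of the counts of a library, and the smallest count behind any of them was 206. SLFN5 itself stood at 420 and 353 in the controls and at 167 and 118 after SLFN5 siRNA. Of the 7 markers of the kidney line, the cadherin CDH6 rose (6207 and 2888 in the controls, 13060 and 9823 after SLFN5 siRNA, limma adjusted p = 0.00215), vimentin (VIM) fell by 0.46 on the log2 scale (adjusted p = 0.0140) and 5 did not pass, among them the kidney factor PAX8, at 3392 to 4129. The VIM call was lost without any 1 library. CD3E and PECAM1, markers of T cells and endothelium, had a count of 0 in each. Of the marker lists of other cell types, 1 leukocyte, 0 endothelial and 3 fibroblast genes reached the level for testing, and of these PDGFRB was lower after SLFN5 siRNA (26.9 and 24.8 against 4.12 and 10.2, limma adjusted p = 0.0336), a call lost without control 1 (0.122), control 2 (0.130) or SLFN5 siRNA 1 (0.100). The leukocyte gene was ITGAM, at 11.2 and 2.21 in the controls and 30.6 and 17.8 after SLFN5 siRNA (adjusted p = 0.0559). RN7SK, which has no poly(A) tail, took 2.20% and 2.53% of the control counts and 3.54% and 3.76% of the SLFN5 siRNA counts. The part of these markers and of RN7SK in the results below was not tested.

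Among the 9 host transcripts, 3 were lower after SLFN5 siRNA, 0 were higher and 6 did not pass the test (limma, adjusted p threshold 0.05). Those that fell were SNHG15, SNHG1 and SNHG7. No transcript was higher at an unadjusted p under 0.05 either, since the 3 past that level were these same ones, and limma-voom on the recovered counts also called 3 lower and 0 higher. Over all tested genes, 16.3% were called lower and 13.3% higher, or 29.6% in either direction. The median log2 change of the host transcripts was -0.16, against -0.03 over all tested genes. With library totals as the only scaling, the median of all genes moved by 0.12, and the lower share of the calls went from 54.9% to 38.6%, with 2 host transcripts lower. In bulk RNA, fewer cells with a transcript and less of it per cell cannot be told apart.

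**Figure D1:**
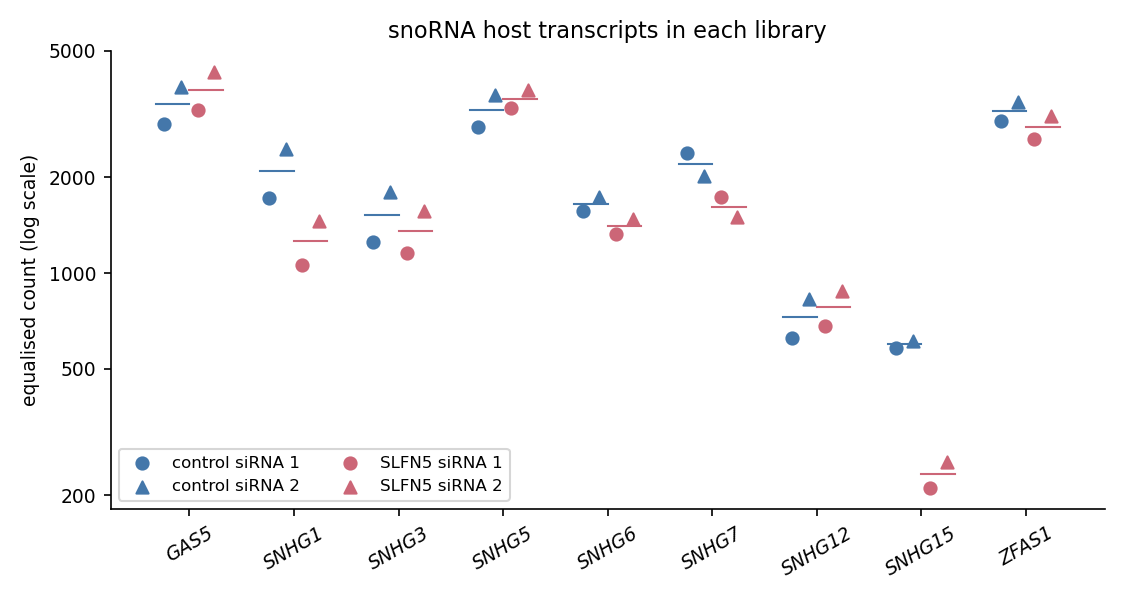
Equalised count (log axis) of each of the 9 host transcripts in each library. Circles are the libraries numbered 1, triangles those numbered 2, and lines the group means (n = 2 libraries per group). SNHG15 lay at 582 and 612 in the controls and at 211 and 255 after SLFN5 siRNA, and the groups also stand apart for SNHG1, SNHG6 and SNHG7.

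SNHG15, the host of the box H/ACA snoRNA SNORA9, had the largest change of the 9. It stood at 582 and 612 equalised counts in the controls and at 211 and 255 after SLFN5 siRNA. Both SLFN5 siRNA libraries thus lay far below both controls, and the libraries of each group were close together. The mean fell from 597 ± 21.2 to 233 ± 31.5 (SD, n = 2 libraries), or 39.0% of the control level, a log2 change of -1.36 (SE 0.17, limma adjusted p = 0.000167). The call was kept in all 14 alternative analyses, with log2 changes from -1.50 to -1.18 and adjusted p from 9.87e-09 to 0.0420.

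SNHG1, whose introns hold a cluster of box C/D snoRNAs, stood at 1717 and 2461 in the controls and at 1060 and 1461 after SLFN5 siRNA. The groups did not overlap, but control 1 lay nearer to SLFN5 siRNA 2 than to control 2. The mean fell from 2089 ± 526 to 1260 ± 283 (SD, n = 2 libraries), 60.3% of the control level, with a log2 change of -0.72 (SE 0.18, limma adjusted p = 0.0118). The call was lost without control 2 (log2 change -0.46, adjusted p = 0.0686), without SLFN5 siRNA 1 (-0.49, adjusted p = 0.0976) and at the depth of the shallowest library (adjusted p = 0.0703). Over the 14 alternatives its adjusted p ranged from 5.77e-07 to 0.156, and the direction was lower in each.

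The gene that starts nearest to SNHG1 on the other strand is SLC3A2, whose annotated start lies 224 bases away. It encodes the heavy chain of amino acid transporters such as LAT1 and xCT. SLC3A2 stood at 7918 and 8981 in the controls and at 5750 and 6439 after SLFN5 siRNA, so its groups did not overlap either. It fell by 0.47 on the log2 scale (SE 0.11, limma adjusted p = 0.00938). As for SNHG1, leaving out control 2 or SLFN5 siRNA 1 ended the call (adjusted p = 0.101 and 0.0638), and it was also lost after quantile normalization (log2 change -0.26, adjusted p = 0.0974). The ratio of SLFN5 siRNA to control was 0.603 for SNHG1 and 0.721 for SLC3A2; the difference between them was not tested. GAS5 had a neighbour of the same kind, the zinc finger gene ZBTB37 at 665 bases, with 146 and 167 in the controls and 186 and 188 after SLFN5 siRNA. All of its SLFN5 siRNA values were above its control values, and the log2 change of 0.26 (SE 0.20) did not pass (limma adjusted p = 0.379).

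SNHG7, a host of box H/ACA snoRNAs, stood at 2391 and 2020 in the controls and at 1740 and 1497 after SLFN5 siRNA. The lower control lay above the higher SLFN5 siRNA library. The mean fell from 2205 ± 262 to 1618 ± 172 (SD, n = 2 libraries), 73.4% of the control level, with a log2 change of -0.45 (SE 0.13, limma adjusted p = 0.0234). The call was lost without control 1 (adjusted p = 0.200) or SLFN5 siRNA 2 (0.118), with library totals alone (0.0935), after quantile normalization (0.105) and at the depth of the shallowest library (0.110). Its adjusted p ranged from 0.000214 to 0.200 over the 14 alternatives, and the log2 change from -0.57 to -0.31.

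SNHG6, the host of a box C/D snoRNA, stood at 1565 and 1733 in the controls and at 1328 and 1483 after SLFN5 siRNA. Its groups did not overlap, yet the gap between them was smaller than the spread within either group, and the log2 change of -0.23 (SE 0.12) did not pass (limma adjusted p = 0.185). With SNHG6, 4 of the 9 transcripts had groups that did not overlap, all 4 with the lower values after SLFN5 siRNA. Of all tested genes, 34.1% were separated in that direction and 30.5% in the other.

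**Figure D2:**
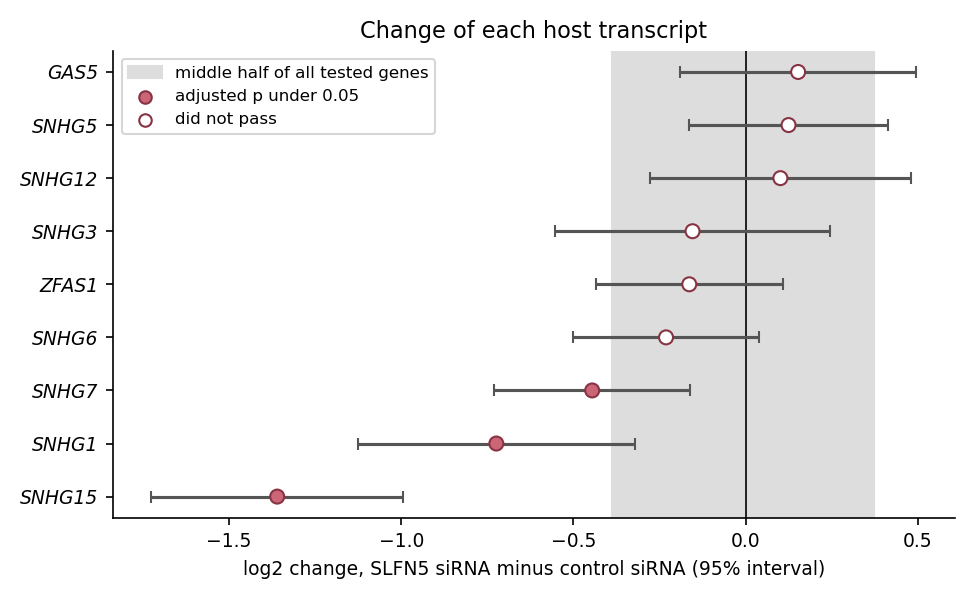
Log2 change of each host transcript with its 95% interval from limma (bars); filled points passed the test, and the grey band spans the lower to the upper quartile of all tested genes (-0.39 to 0.37). SNHG15, SNHG1 and SNHG7 lie left of the band, while the other 6 lie within it with intervals that cross 0.

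GAS5 was among the most abundant of the 9, and its groups overlapped. It stood at 2935 and 3853 in the controls and at 3249 and 4301 after SLFN5 siRNA. SLFN5 siRNA 1 lay between the controls. The log2 change was 0.15 (SE 0.16, 95% interval -0.19 to 0.50, limma adjusted p = 0.509). A rise of up to 0.50 or a fall of up to 0.19 on the log2 scale therefore lay within the interval.

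SNHG5, the host of box C/D snoRNAs of the SNORD50 group, stood at 2880 and 3632 in the controls and at 3307 and 3761 after SLFN5 siRNA. The groups overlapped, with a log2 change of 0.12 (SE 0.13, 95% interval -0.16 to 0.41, limma adjusted p = 0.521). SNHG12, which holds 4 annotated box H/ACA and 1 box C/D snoRNA entries in GENCODE, stood at 626 and 830 in the controls and at 680 and 880 after SLFN5 siRNA. Here too SLFN5 siRNA 1 lay between the controls (log2 change 0.10, SE 0.17, 95% interval -0.28 to 0.48, limma adjusted p = 0.709). The log2 changes of GAS5, SNHG5 and SNHG12 were above 0 in each scaling tried, but each turned to the other sign when control 1 was left out, and those of GAS5 and SNHG12 also did so without SLFN5 siRNA 2.

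ZFAS1, which starts antisense to the gene ZNFX1 and hosts 3 box C/D snoRNAs, stood at 3005 and 3450 in the controls and at 2648 and 3121 after SLFN5 siRNA. The groups overlapped (log2 change -0.16, SE 0.12, 95% interval -0.43 to 0.11, limma adjusted p = 0.358). SNHG3, the host of the SNORA73 pair, stood at 1250 and 1794 in the controls and at 1158 and 1564 after SLFN5 siRNA. Its log2 change of -0.15 (SE 0.18, 95% interval -0.55 to 0.24) did not pass (limma adjusted p = 0.572). Its change was above 0 without control 2 (0.11) or SLFN5 siRNA 1 (0.063). GENCODE also classes SNHG7 and SNHG12 with ZFAS1 as antisense genes. The kit does not mark the strand, so reads of these transcripts and of their antisense partners cannot be told apart.

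The libraries of a group differed from each other by more than the groups did for several hosts. Of the 9 transcripts, 8 had a higher value in library 2 than in library 1 of both groups, and SNHG7 had the lower value in library 2 of both. Among all tested genes, 29.0% were higher in library 2 of both groups. The ratio of control 2 to control 1 was 1.43 for SNHG1 and SNHG3, 1.33 for SNHG12 and 1.31 for GAS5. The matching ratios within the SLFN5 siRNA group were 1.38 for SNHG1, 1.35 for SNHG3, 1.29 for SNHG12 and 1.32 for GAS5. SNHG7 had ratios of 0.845 and 0.860. For SNHG15 they were 1.05 and 1.21, both small beside its difference between the groups. Control 1 was the deepest library, and the part of depth in these ratios was not tested.

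**Figure D3:**
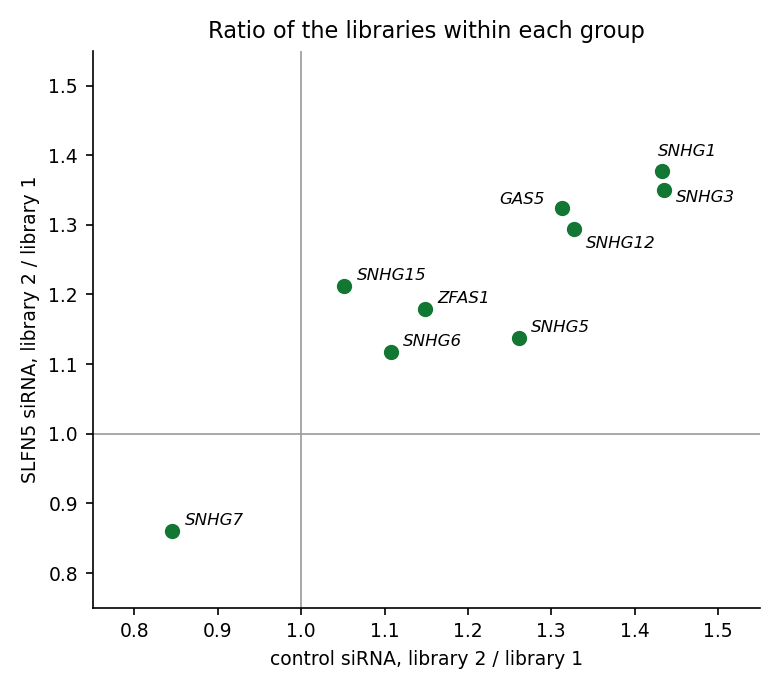
Ratio of library 2 to library 1 in the control group (horizontal axis) and in the SLFN5 siRNA group (vertical axis), on equalised counts, 1 point per host transcript; grey lines mark a ratio of 1. GAS5, SNHG1, SNHG3 and SNHG12 lie at 1.29 or more on both axes, and SNHG7 alone lies below 1 on both.

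Levels were compared between hosts per kilobase, with exon lengths from GENCODE release 29. Per kilobase of merged exons, the control means ran from 1439 equalised counts for ZFAS1 through 1323 for SNHG6, 1160 for SNHG5 and 935 for GAS5 to 556 for SNHG1, 508 for SNHG7, 372 for SNHG3, 171 for SNHG12 and 164 for SNHG15. The control ranges overlapped for ZFAS1 and SNHG6, SNHG6 and SNHG5, SNHG5 and GAS5, SNHG1 and SNHG7, and SNHG12 and SNHG15. Within each control library, though, ZFAS1 stood above SNHG6, SNHG6 above SNHG5 and SNHG5 above GAS5. SNHG1 and SNHG7 changed order between the controls, as did SNHG12 and SNHG15. These differences between hosts were not tested. With the median transcript length instead, GAS5 came first at 4933 per kilobase, followed by ZFAS1 at 4857 and SNHG5 at 4845, and SNHG15, SNHG3 and SNHG12 came last at 709, 692 and 668. SNHG15 and SNHG12 were thus among the lowest 3 by either length. On the merged-exon scale, the means of SNHG12 and SNHG15 were 183 and 63.9 after SLFN5 siRNA.

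The snoRNAs inside the hosts could be matched by gene identifier in 6 cases of the 24 snoRNA entries that GENCODE places within these genes. In that count GAS5 had 0 entries, so the 24 are not a full list of the snoRNAs of these hosts. Names were not used, because the 34 listed snoRNA names stood on 78 rows. SNORD99, a box C/D snoRNA within SNHG12, stood at 2632 and 3858 in the controls and at 2403 and 1221 after SLFN5 siRNA. SLFN5 siRNA 2 lay far below the other 3 libraries. SNORD99 fell by 0.89 on the log2 scale (SE 0.26, limma adjusted p = 0.0215), while its host SNHG12 had a log2 change of 0.10. The counter was not given, so how reads over a snoRNA were assigned between its row and that of its host is not known.

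In ZFAS1, SNORD12 stood at 3319 and 3633 in the controls and at 2862 and 1374 after SLFN5 siRNA, and fell by 0.81 on the log2 scale (SE 0.25, limma adjusted p = 0.0282). The low value again came from SLFN5 siRNA 2, the library in which all 837 snoRNA rows together took the smallest share of the counts (1.05%, against at least 1.27% in each of the others). The part of that share in these falls was not tested. Without that library neither snoRNA passed (adjusted p = 0.167 for SNORD99 and 0.143 for SNORD12), and neither passed after quantile normalization (0.0626 and 0.0903) or with every library thinned to the smallest depth (0.0725 and 0.107). SNORD12B stood at 332 and 391 in the controls and at 386 and 224 after SLFN5 siRNA, and SNORD12C at 87.2 and 103 against 92.0 and 96.4. The groups of both overlapped (limma adjusted p = 0.387 and 0.977).

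SNORA73B, within SNHG3, was by far the most abundant of these rows, with 80715 and 92814 in the controls and 91025 and 59752 after SLFN5 siRNA. Its groups overlapped (log2 change -0.23, SE 0.18, limma adjusted p = 0.369). SNORD87, within SNHG6, had a count of 0 in all 4 libraries. The poly(A) selection of the kit was not made for snoRNAs, which end without a poly(A) tail, so these values are what remained after the selection.

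**Figure D4:**
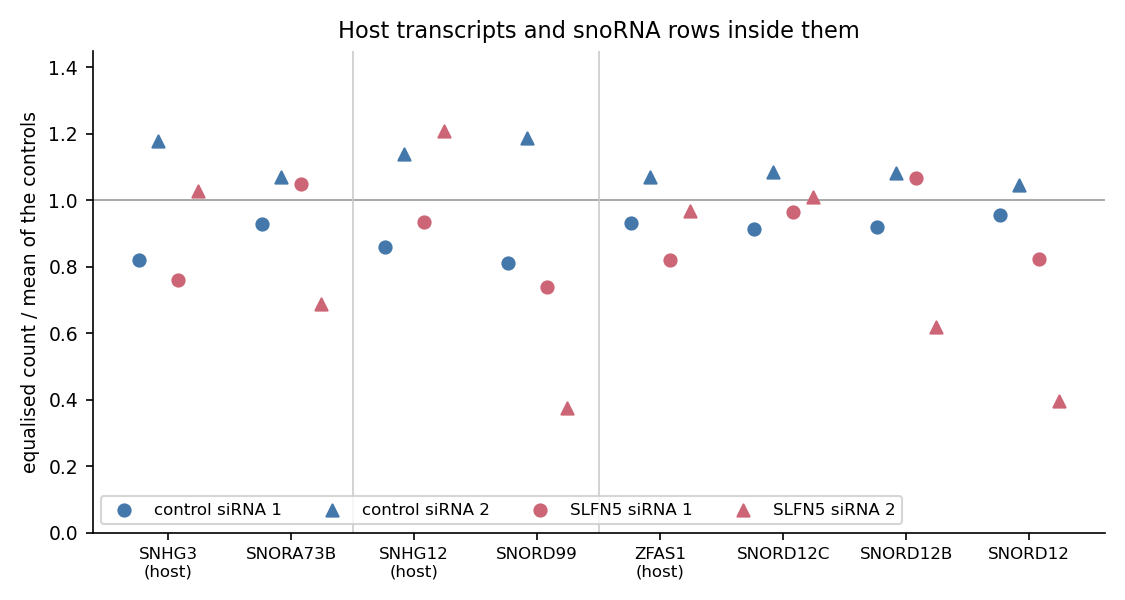
Equalised count of 3 host transcripts and of the snoRNA rows inside them in each library, divided by the mean of the controls. Circles are libraries numbered 1 and triangles those numbered 2. SLFN5 siRNA 2 is the lowest library for SNORA73B, SNORD99, SNORD12B and SNORD12, and is not the lowest for any of the hosts.

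Other noncoding snoRNA hosts were described from a list of 15 names, of which 8 were tested. Of these, 3 fell (SNHG16, SNHG9 and LINC00324), 1 rose (DANCR) and 4 did not pass (16.3% and 13.3% of all tested genes fell and rose). The median log2 change of the list was -0.31, against -0.03 over all tested genes. SNHG16, chosen after its values were seen, stood at 4836 and 5031 in the controls and at 3261 and 3598 after SLFN5 siRNA, and fell by 0.53 on the log2 scale (limma adjusted p = 0.00391). DANCR, a noncoding RNA linked to an undifferentiated state, rose from 704 and 610 to 869 and 951 (log2 change 0.47, limma adjusted p = 0.0243). SNHG9 had 89.7 and 87.0 against 54.2 and 44.4 (log2 change -0.84, limma adjusted p = 0.0484), and LINC00324 had 453 and 630 against 396 and 284 (-0.67, limma adjusted p = 0.0287). The calls of DANCR and LINC00324 were lost without control 2 (adjusted p = 0.221 and 0.238) or SLFN5 siRNA 2 (0.0945 and 0.171), and that of SNHG9 without any 1 library (0.0581 to 0.191); the list then had 1 lower without control 2 or without SLFN5 siRNA 2. At the depth of the shallowest library and with limma-voom on the recovered counts 1 was lower as well, with limma-voom the calls of SNHG9 and LINC00324 being lost (adjusted p = 0.0619 and 0.0571).

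Protein-coding snoRNA hosts, mostly genes of ribosomal proteins and of translation, were described from a list of 45. Of 44 tested, 21 fell (16.3% of all tested genes fell), 0 rose and 23 did not pass (limma; 1 rose with library totals alone and at the depth of the shallowest library, and 3 after quantile normalization), with a median log2 change of -0.29. HSPA9, the mitochondrial chaperone mortalin, went from 13365 and 15073 in the controls to 5592 and 5771 after SLFN5 siRNA (log2 change -1.32, limma adjusted p = 1.60e-05). RPS2, a protein of the small ribosomal subunit, went from 9341 and 7888 to 3783 and 3648 (-1.21, limma adjusted p = 3.88e-05). The count was 13 with library totals alone, without control 1 and without control 2, and 12 at the depth of the shallowest library. Ribosomal protein genes have processed pseudogenes that can share reads.

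The proteins that form and assemble snoRNA particles included more that fell than rose. Of 18 tested, 10 fell, 2 rose and 6 did not pass (16.3% and 13.3% of all tested genes fell and rose), with a median log2 change of -0.59. NOP58, a core protein of box C/D particles, fell from 3603 and 4077 to 1845 and 2159 (log2 change -0.94, limma adjusted p = 0.000242). NOP58 is itself a host and stands in both lists, as do NOP56 and DKC1. All of these were called lower, so the counts of the lists of coding hosts and of particle proteins overlap. ZNHIT6, a box C/D assembly factor, fell from 1424 and 1525 to 586 and 654 (-1.25, limma adjusted p = 6.30e-05). The box C/D methyltransferase FBL and the H/ACA pseudouridine synthase DKC1, both chosen after their values were seen, had log2 changes of -0.78 and -0.61. NOLC1, a nucleolar chaperone of snoRNA particles, went the other way, from 1649 and 1686 to 3230 and 3486 (1.01, limma adjusted p = 8.98e-05). PIH1D1, of the R2TP assembly complex, rose by 0.47 (log2, limma adjusted p = 0.0206), and its call was lost when control 1 (0.136), control 2 (0.0550) or SLFN5 siRNA 1 (0.0841) was left out, so that 1 gene of the list was higher in each of those cases.

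**Figure D5:**
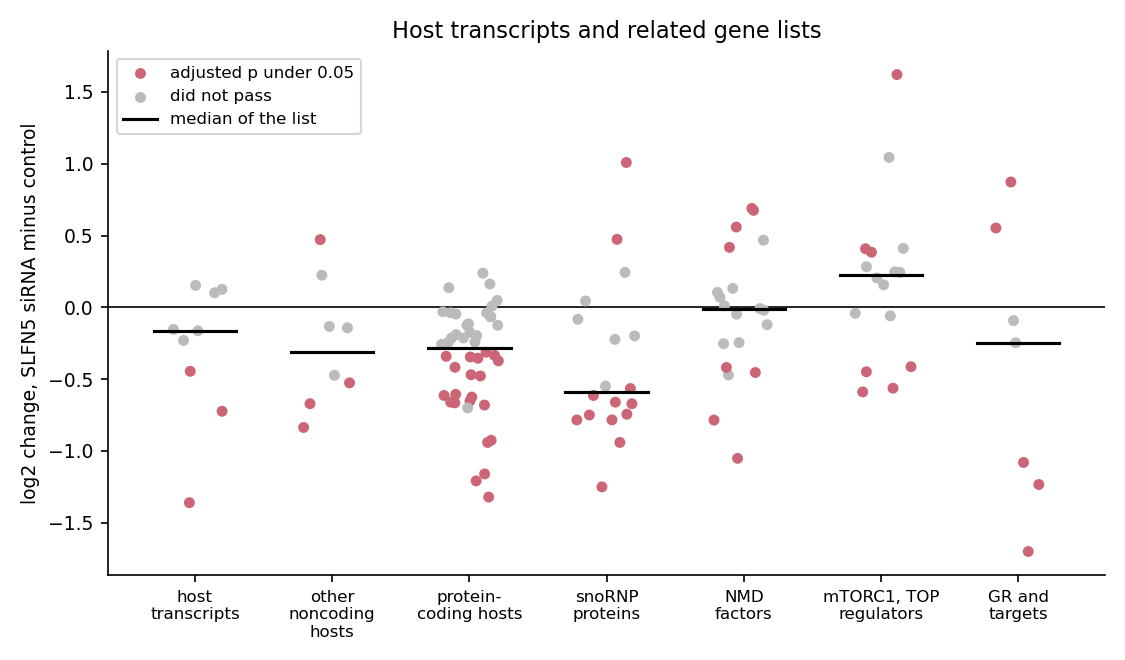
Log2 change of the 9 host transcripts and of the tested genes of 6 related lists; red points passed the test, grey points did not, and bars are medians. The medians are -0.16 for the host transcripts, -0.29 for protein-coding hosts and -0.59 for the proteins of snoRNA particles.

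NMD factors went both ways. Of 20 tested, 4 rose, 4 fell and 12 did not pass, with a median log2 change of -0.01. Of all tested genes, 13.3% were higher and 16.3% lower, and the difference from these shares was not tested. UPF2, which joins the core factor UPF1 to the exon junction complex, rose from 621 and 664 to 955 and 1102 (log2 change 0.68, limma adjusted p = 0.00345), and PNRC2, which links UPF1 to decapping, had a log2 change of 0.69. The paralogous exon junction proteins MAGOH and MAGOHB fell by 1.05 and 0.79 on the log2 scale; as near-identical copies they may share reads. UPF1 itself stood at 3209 and 3205 against 2792 and 3116 and did not pass (chosen after its values were seen; limma adjusted p = 0.456). The lower count was 2 with library totals alone, after quantile normalization, at the depth of the shallowest library and without control 2, and the higher count was 2 without control 2.

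Regulators of mTORC1 and of mRNAs with a terminal pyrimidine tract also split. Of 16 tested, 3 rose and 4 fell, against 13.3% and 16.3% of all tested genes, and the difference from these shares was not tested. The median log2 change was 0.22, against -0.03 over all tested genes. DDIT4, an inhibitor of mTORC1 made under stress, rose from 1779 and 1120 to 4642 and 4062 (log2 change 1.62, limma adjusted p = 9.47e-05). RHEB, the GTPase that activates mTORC1, fell from 4272 and 4708 to 2786 and 3190 (-0.59, limma adjusted p = 0.00294), and CNBP, which binds such tracts, fell by 0.56. EIF4EBP2, a translation repressor under mTORC1, rose by 0.41 (log2, limma adjusted p = 0.0168), a call lost when control 1 (0.0901), control 2 (0.0814) or SLFN5 siRNA 1 (0.0695) was left out. With library totals alone 7 rose and 2 fell, and the counts were 6 and 2 after quantile normalization; without control 1 or without control 2 they were 1 and 2, and the lower count was also 2 without SLFN5 siRNA 1 and at the depth of the shallowest library.

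The glucocorticoid receptor and its targets were listed because GAS5 RNA can bind the receptor. Of 7 tested, 2 rose, 3 fell and 2 did not pass (13.3% and 16.3% of all tested genes rose and fell). The receptor gene NR3C1 rose from 1627 and 1546 to 2204 and 2456 (log2 change 0.55, limma adjusted p = 0.00437), and its target FKBP5 from 213 and 185 to 344 and 385 (0.87, limma adjusted p = 0.00398). The clock gene PER1 fell from 251 and 221 to 71.6 and 72.0 (-1.70, limma adjusted p = 0.000265), and the phosphatase DUSP1 from 1160 and 1437 to 595 and 506 (-1.23, limma adjusted p = 0.000159). FKBP5, PER1 and DUSP1, all known to be induced through the receptor, thus moved in both directions.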

How the data were processed

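Per the labels' protocols, total RNA was poly(A)-selected with the TruSeq RNA v2 kit and sequenced as single ends on a HiSeq 2500. Per the submitters' processing notes, the authors used hg19 and edgeR; the aligner, counter and annotation were not given in the sources used here. For each gene the authors deposited a signal made of counts that they equalised to a common library size. Inverting that adjustment (dispersion 0.0162) gave whole counts for all 230636 values (tolerance 1e-06). Genes that reached 10 in 2 or more libraries were tested on log2(value + 1) with limma 3.58.1 in R 4.3.3 (group only, variance trend, Benjamini-Hochberg). A negative binomial count test was planned only if the deposited values were counts, and it was not run on the recovered counts either. The recovered counts were used in an alternative with limma-voom. The scripts were tested on simulated data.

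The transcripts and lists were chosen with earlier results of these data known. The rule for named genes took every host transcript and the 2 genes with the largest called change in each direction of each list. It also took the nearest gene starting within 5 kb on the other strand, where that gene had a row under its name. Exons and snoRNA positions came from GENCODE release 29 and starts from RefSeq. Alternatives covered scaling, pseudocount, filter, variance trend, depth, replicate block and each library left out.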

Additional observations from a re-analysis of the deposited data

How the results depend on the processing

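Over 14 alternatives, SNHG15, SNHG1, SNHG6, SNHG7 and ZFAS1 were lower in each, with ZFAS1 nearest to 0 (-0.0019). The number of host transcripts called lower was 3, but 1 (SNHG15) when all libraries were thinned to the shallowest and 1 without a variance trend, and 2 with library totals alone or after quantile normalization; leaving out a library gave 2 in each case. Of all tested genes, 2544 were lower and 2086 higher. The lower count was 1430 after thinning, the counts were 510 and 672 without the variance trend (where SNHG1, SNHG7 and most genes named from the lists also lost their calls, and 4 protein-coding hosts and 2 snoRNA particle proteins were lower), and leaving out a library gave 1588 to 2300 lower and 1353 to 1791 higher, the fewest without control 2. Leaving out a library moved the log2 change of GAS5 between -0.0495 and 0.36, of SNHG3 between -0.41 and 0.11, of SNHG5 between -0.0421 and 0.29 and of SNHG12 between -0.10 and 0.30; with 1 library left in a group, it is assumed to vary like the other group. The cause of these changes was not tested. The weight that limma gave to the variance shared between genes also differed between the alternatives. Its prior degrees of freedom were 9.6 in the main fit, 22.8 with the replicate block and 53.6 without the filter. They were without limit when either control was left out. The lowest adjusted p-values of the alternatives should therefore not be read as stronger evidence. With the replicate number as a block, 4 host transcripts were lower and 0 higher, the addition being SNHG6 (log2 change -0.23, adjusted p = 0.0452, and 0.0452 to 0.637 over its alternatives), and 3695 genes were lower and 3008 higher; 1 protein-coding host and 7 mTORC1 regulators were then higher. The libraries share a number and a title code of unknown meaning; their deviations from the group means correlated across 15640 genes (Pearson 0.19, Spearman 0.25), genes not being independent replicates. At the depth of the shallowest library the calls of SNHG1 and SNHG7 were lost and that of SNHG15 was kept (adjusted p = 0.0043).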
